A study of Arabidopsis thaliana with 8 samples.

Results

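MIC60 (AT4G39690) and AT4G31930 are nuclear genes of Arabidopsis thaliana for proteins of the mitochondrion, and their transcripts differed in opposite directions between wild-type plants and a tatA antisense line. The MIC60 spot was 3.46-fold brighter in the wild type on the deposited scale, and 2.73-fold brighter relative to the median spot of each array. The AT4G31930 spot was listed at 0 on 3 of 4 wild-type arrays and above 0 on all 4 arrays of the antisense line. These 2 genes were chosen by that same difference, with earlier results of these arrays known, so their values are given here as a description and without a test. They are 2 of 689 loci that could be assigned to spots carrying a single gene in the array's annotation.

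The study set 4 arrays of WT, ecotype Columbia 0, against 4 arrays of the tatA line in the same ecotype, each hybridised with total RNA. TatA belongs to the twin-arginine translocation (TAT) machinery, which moves folded proteins from the chloroplast stroma across the thylakoid membrane. The antisense line carries an antisense construct against tatA; its promoter, the number of independent lines, the age of the plants and the tissue are not stated in the labels. The tatA transcript itself is not analysed here, so the antisense effect was not checked. No label says whether the 4 samples of a group came from separate plants, so the tests below measure the spread between arrays, which may be technical.

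Mitochondria are bounded by 2 membranes, and the inner one folds into cristae that hold the respiratory chain. MIC60 is the core subunit of the MICOS complex, which shapes the narrow necks of the cristae and ties the inner to the outer membrane. In Arabidopsis it has also been linked to lipid exchange between the membranes. The mitochondrial glycoprotein family, to which AT4G31930 belongs, is named after acidic proteins of the matrix, with MAM33 in yeast and p32 in humans as the best studied members. The function of AT4G31930 itself is not described in the sources used here.

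Spot intensity was given on a linear scale with an unstated scaling. The median spot lay between 0.429 and 0.531 in WT and between 0.365 and 0.390 in tatA, and between 172 and 248 spots of 3439 were at 0 on an array. In both groups, replicates 1 and 2 were alike, and so were replicates 3 and 4: the median absolute log2 difference between arrays was 0.166 and 0.199 within these WT pairs, and 0.398 to 0.408 across them. In tatA it was 0.257 and 0.224 within the pairs and 0.373 to 0.406 across them. What the pairs stand for is not stated, and results are therefore also given by pair. Of 12 leaf genes on a list of organ markers, 3 were on the array (LHB1B2, SBPASE and PSBW), with mean intensities of 6.43, 0.508 and 13.3 in WT and 8.01, 0.800 and 26.5 in tatA, while 0 of 12 root, flower or pollen genes were, so the tissue could not be checked.

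MIC60 was a bright spot in the wild type. Its intensity was 4.17, 4.34, 4.81 and 4.06 on WT replicates 1 to 4, and 0.951, 1.04, 1.53 and 1.51 on tatA replicates 1 to 4. All 4 tatA values lay under all 4 WT values, and the dimmest WT array was 2.66-fold brighter than the brightest tatA array. The means were 4.34 ± 0.329 in WT and 1.26 ± 0.304 in tatA (SD, n = 4 arrays). The groups did not overlap after quantile normalization either, where non-overlap with lower values in tatA was found for 18.9% of all rows tested. That share was not counted on the deposited scale. Nothing is read from the non-overlap here, since this contrast chose the gene. In bulk RNA, fewer cells of a type and less RNA per cell cannot be told apart. After quantile normalization the log2 difference (tatA minus WT) was -1.52, at place 30 from the lowest among 646 loci and at place 146 among all 3261 genes and unnamed spots.

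**Figure D1:**
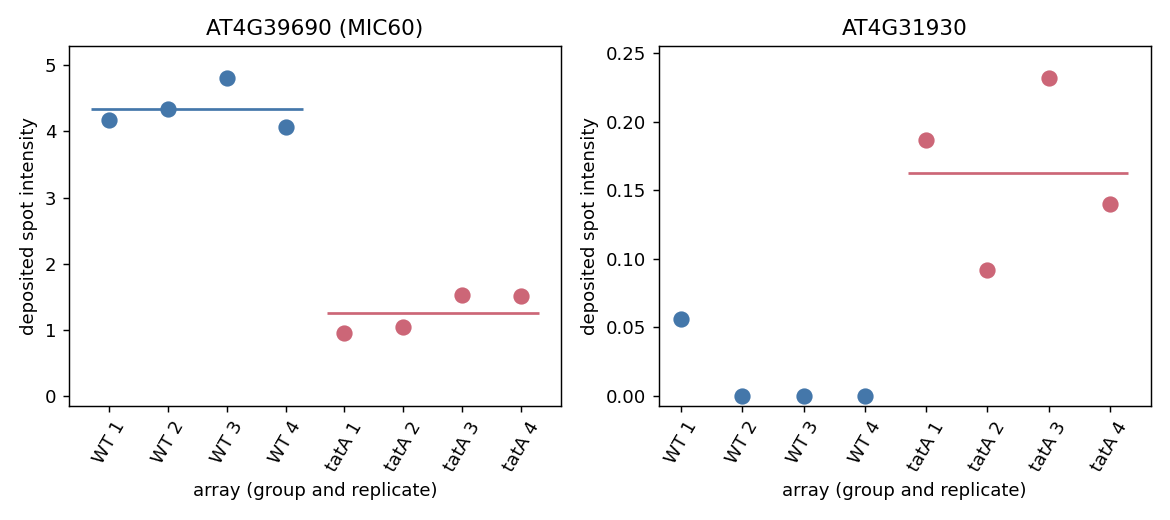
Deposited spot intensity (linear scale, y axis) of MIC60 on the left and AT4G31930 on the right, on each of the 4 WT arrays (blue) and 4 tatA arrays (red). A point is 1 array, and a horizontal line is the mean of a group with no array at 0; MIC60 lies between 4.06 and 4.81 in WT and between 0.951 and 1.53 in tatA, while AT4G31930 is at 0 on WT replicates 2 to 4.

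The position of MIC60 among the spots of its own array does not depend on how an array was scaled. On WT replicates 1 to 4, 96.8%, 96.9%, 97.6% and 96.8% of the spots were dimmer than MIC60. On tatA replicates 1 to 4 the share was 83.6%, 85.3%, 90.5% and 90.4%. MIC60 thus ranked lower on every tatA array than on any WT array. Relative to the median spot of the array, its intensity was 9.15 ± 1.02 in WT and 3.35 ± 0.764 in tatA (SD, n = 4 arrays), a ratio of 2.73 between the groups. On the deposited scale the log2 difference of MIC60 was -1.82, and the median of all rows was -0.47, which leaves -1.35 relative to that median.

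**Figure D2:**
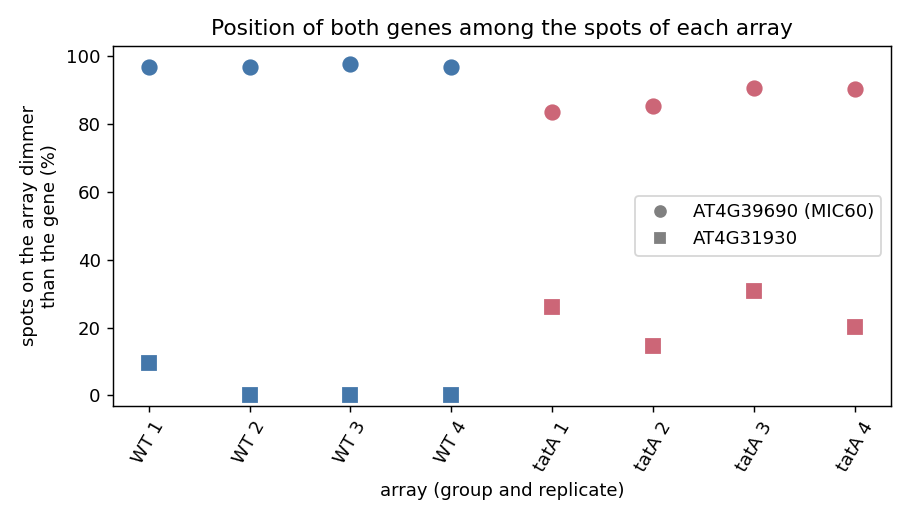
Share of the spots on an array that are dimmer than MIC60 (circles) or AT4G31930 (squares), in percent (y axis), for each WT array (blue) and tatA array (red). MIC60 lies between 96.8% and 97.6% in WT and between 83.6% and 90.5% in tatA, and AT4G31930 lies at 14.6% to 30.8% in tatA and at 0% on the 3 WT arrays that list it at 0.

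The WT arrays were closer to each other than the tatA arrays for this gene. The coefficient of variation of MIC60 was 7.58% in WT, against a median of 10.7% for the 217 spots with a WT mean within a factor of 2 of its own. In tatA it was 24.2%, against a median of 13.9% for 827 such spots. The spread in tatA lay between the replicate pairs: MIC60 averaged 0.995 on replicates 1 and 2 and 1.52 on replicates 3 and 4, a ratio of 1.52, where the same ratio in WT was 1.04. WT exceeded tatA 4.27-fold in replicates 1 and 2 and 2.92-fold in replicates 3 and 4, and the normalized log2 differences were -1.70 and -1.33.

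AT4G31930 was dim on every array. It was listed at 0.0564 on WT replicate 1 and at 0 on WT replicates 2, 3 and 4. On tatA replicates 1 to 4 its intensity was 0.187, 0.0921, 0.232 and 0.140. The lowest tatA value lay above the only positive WT value, so the groups did not overlap. Higher values in tatA without overlap were found for 16.6% of all rows tested after quantile normalization, and again nothing is read from this. Because 3 WT arrays are at 0 and the sources used here do not say what a 0 stands for, no fold is given.

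The dim level of AT4G31930 can be placed within each array. Only 136 spots with a positive value were dimmer than AT4G31930 on WT replicate 1. On the tatA arrays, 26.0%, 14.6%, 30.8% and 20.3% of all spots were dimmer on replicates 1 to 4, so the gene stayed in the lower part of the range in the antisense line too. The mean tatA intensity of AT4G31930 was 0.140 in replicates 1 and 2 and 0.186 in replicates 3 and 4. The smallest positive value of any spot was between 0.000193 and 0.000858 on the WT arrays, far under the 0.0564 of AT4G31930 on WT replicate 1.

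Few spots had a pattern of zeros like that of AT4G31930. The gene was chosen by this contrast, so nothing is read from how few they were. Of 3439 spots, 3 were at 0 on 3 or 4 WT arrays and on no tatA array, and AT4G31930 was the 1 spot with a locus among them. The tatA means of these 3 spots were between 0.163 and 0.463, with AT4G31930 the dimmest. The opposite pattern, 0 on 3 or 4 tatA arrays and on no WT array, was found for 25 spots, of which 2 had a locus. Every tatA array had more spots at 0 (209 to 248) than any WT array (172 to 192).

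The spots numbered next to both genes showed values of their own. Only spot numbers were used, and where a number lies on the slide was not checked. Beside MIC60, spot 4111 averaged 0.291 ± 0.102 in WT and 0.229 ± 0.0363 in tatA, and AT1G05490 (chr31, a chromatin remodelling protein) averaged 1.81 ± 0.259 and 1.18 ± 0.0544 (SD, n = 4 arrays). Beside AT4G31930, AT3G26630 averaged 4.16 ± 0.895 in WT and 2.19 ± 0.223 in tatA, and spot 2397, which stands for several genes, 1.34 ± 0.206 and 0.562 ± 0.201 (SD, n = 4 arrays). Both spots beside AT4G31930 were thus lower in tatA, the reverse of its own difference. Within 10 spot numbers of MIC60, 11 tested spots had a median log2 difference of -0.27 (from -1.12 to 0.46), and within 10 of AT4G31930, 15 had a median of -0.33 (from -1.40 to 4.84). MIC60 at -1.52 lay below all 11 of these spots. Both genes were chosen by this contrast, so nothing is read from how they compare with the spots of nearby number.

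To set the pair beside other genes for mitochondrial proteins, 193 further loci were listed, from cristae organisation and protein import to the tricarboxylic acid cycle, respiration, carriers, chaperones and division. Only 3 of them could be measured here: AT5G02050, of the same glycoprotein family list as AT4G31930, and AT5G47030 and AT4G02580, both from the list of respiratory chain and ATP synthase genes. With limma, 0 of the 3 had a Benjamini-Hochberg adjusted p under 0.05, the limit used throughout for a call. An unadjusted p under 0.05 was found for 2 of the 3. The share of all rows under that unadjusted limit was not counted, but it cannot be below the 32.1% that passed the adjusted limit. Nothing is therefore read from the 2 of 3. At the adjusted limit 32.1% of all rows passed, 15.3% higher and 16.8% lower in tatA. Among rows with a locus 31.4% passed it. On the deposited scale, where the median row lies at -0.47, the calls split into 310 higher and 1080 lower, in place of 499 and 547.

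AT5G02050 had intensities of 0.170, 0.217, 0.629 and 0.702 on WT replicates 1 to 4 and of 0.414, 0.554, 0.594 and 0.530 on tatA replicates 1 to 4. The WT values fell apart by replicate pair and enclosed the tatA values. The mean on the tatA arrays was 2.50 times that on the WT arrays in replicates 1 and 2 and 0.845 times in replicates 3 and 4 on the deposited scale. After quantile normalization both pairs were higher in tatA, with log2 differences of 1.55 and 0.25. Over all arrays the log2 difference after normalization was 0.90 (SE 0.39, limma adjusted p = 0.108). Unlike AT4G31930, it was above 0 on every array, and its groups overlapped.

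AT5G47030 had intensities of 0.261, 0.189, 0.312 and 0.335 on the WT arrays and of 0.0723, 0.0638, 0.200 and 0.120 on the tatA arrays. The groups overlapped through WT replicate 2 and tatA replicate 3. Its log2 difference was -0.99 (SE 0.36, limma adjusted p = 0.0663), and the call depended on the setting: without tatA replicate 3 it passed at -1.27 (adjusted p = 0.0260), on the deposited scale at -1.39 (0.0260), with an offset before log2 at -0.56 (0.0477) and without spots holding a 0 at -1.06 (0.0451). AT4G02580 was dim, between 0.0105 and 0.0910 in WT and at 0, 0.00946, 0 and 0.0146 on tatA replicates 1 to 4. With zeros on tatA replicates 1 and 3, its log2 value of -2.24 carried an SE of 2.10 (limma adjusted p = 0.436). By pair this value, with zeros filled and arrays normalized, was 0.74 in replicates 1 and 2 and -5.22 in replicates 3 and 4. The deposited intensities were lower in tatA in both pairs, unlike the sign of 0.74. Their means in WT and tatA were 0.0192 and 0.00473 in replicates 1 and 2, and 0.089 and 0.00728 in replicates 3 and 4. Over the alternatives the log2 difference over all arrays ran from -5.41 to -0.227, so it has no fixed size.

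A further 9 genes were added from the loci on the array after these had been seen, bringing the other mitochondrial genes to 12. Of the 12, 1 passed, LpxA, which was lower in tatA, against 32.1% of all rows. The median log2 difference of the 12 was -0.10, and that of all rows was -0.09. Values were above 0 for 5 genes and below 0 for 7.

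LpxA (AT4G29540), an acyltransferase named after the bacterial enzyme that begins lipid A synthesis, had intensities of 1.07, 1.22, 1.19 and 1.5 in WT and of 0.655, 0.609, 0.612 and 0.764 in tatA. The groups did not overlap. After quantile normalization this was so for LpxA alone among the 12 genes and for 35.5% of all rows, while on the deposited scale the groups of GLDH did not overlap either (lowest WT value 1.09, highest tatA value 1.05). The log2 difference of LpxA was -0.51 (SE 0.13), and it passed (limma adjusted p = 0.0160). The difference was -0.55 in replicates 1 and 2 and -0.47 in replicates 3 and 4. When the 2 arrays of a replicate pair were treated as a random block, where 16.5% of all rows passed, LpxA did not pass (limma adjusted p = 0.126), nor did it with each pair averaged (0.206).

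Genes of electron transfer and ascorbate synthesis did not pass. GLDH, the last enzyme of ascorbate synthesis, which also helps to assemble complex I, had means of 1.39 ± 0.224 in WT and 0.922 ± 0.130 in tatA (SD, n = 4 arrays) and a normalized log2 difference of -0.24 (limma adjusted p = 0.194). On the deposited scale GLDH had -0.59 and passed (adjusted p = 0.0162). ETFQO, which passes electrons from amino acid breakdown to ubiquinone, had a difference of -0.04 (adjusted p = 0.854). AT5G47890 and AT5G67490, which were among the 9 added loci and have no name in the annotation, had differences of -0.37 and 0.54 (adjusted p = 0.524 and 0.365).

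The remaining genes did not pass either. OSB1, a DNA-binding protein of organelles, had a mean of 0.645 ± 0.259 in WT and 0.430 ± 0.0629 in tatA (SD, n = 4 arrays), with a log2 difference of -0.15 (limma adjusted p = 0.632). The differences of OSB1 by pair were 0.23 and -0.54. GLX2-1, named as a glyoxalase, had a difference of 0.64 (adjusted p = 0.311). CKS, which activates the sugar KDO, had 1.90 with an SE of 0.94 (adjusted p = 0.149). The value of CKS depended on the processing: it was 0.711 on the deposited scale and ran from 0.578 to 2.85 over the alternatives. AT4G32060 had 0.38 (adjusted p = 0.137), with a mean of 2.64 in both groups on the deposited scale.

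**Figure D3:**
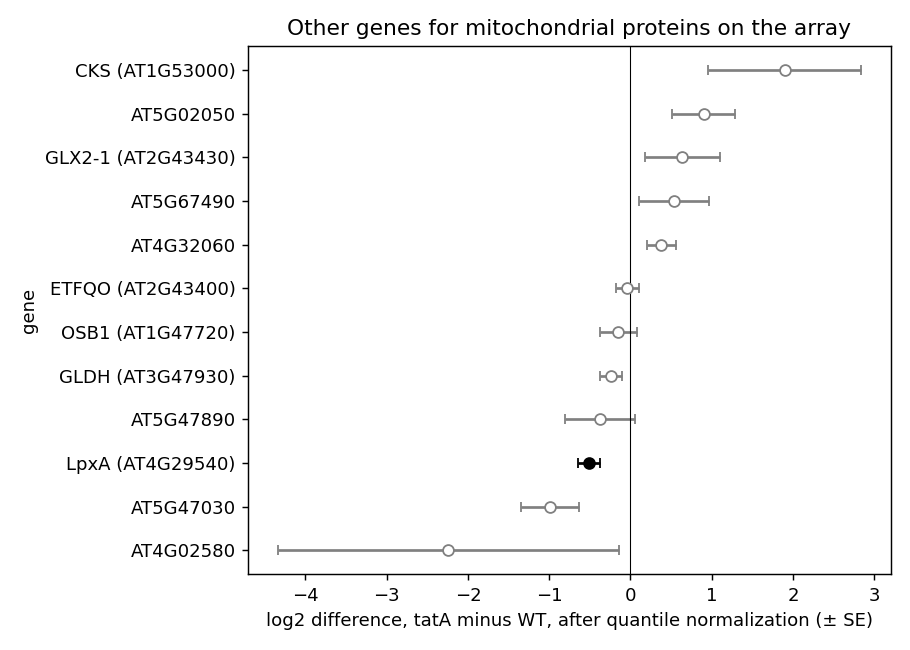
Log2 difference, tatA minus WT, after quantile normalization (x axis) for the 12 other mitochondrial genes measured; bars are the SE of the limma fit over 4 arrays per group. The filled point, LpxA at -0.51, passed at an adjusted p under 0.05, and the 11 open points did not.

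The 598 other loci with no 0 on any array were ranked by how closely their normalized log2 intensity followed MIC60 over the 8 arrays. The highest Pearson correlations were those of AT1G21660 (0.993), AT5G10910 (0.983), AT1G51350 (0.974), AT4G02040 (0.971) and AT4G29750 (0.971). A correlation over 0.95 was found for 9 loci and over 0.9 for 36. All 8 points share the group difference, so any gene lower in tatA tends to score high. Taken as deviations from the group means, which leaves that difference out, the correlation with MIC60 was 0.946 for AT1G21660, 0.776 for AT5G10910, 0.739 for AT1G51350, 0.726 for AT4G02040 and 0.395 for AT4G29750. These deviations still hold the difference between the replicate pairs.

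The loci closest to MIC60 differed in the size of the step between the groups. AT1G21660 averaged 1.46 ± 0.132 in WT and 0.744 ± 0.0446 in tatA, and AT1G51350 averaged 3.96 ± 0.383 and 1.60 ± 0.342 (SD, n = 4 arrays). AT4G29750, a CRM-domain gene, averaged 8.73 ± 0.964 and 1.61 ± 0.147 (SD, n = 4 arrays). Their normalized log2 differences were -0.59, -0.99 and -2.29, with MIC60 in between at -1.52.

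**Figure D4:**
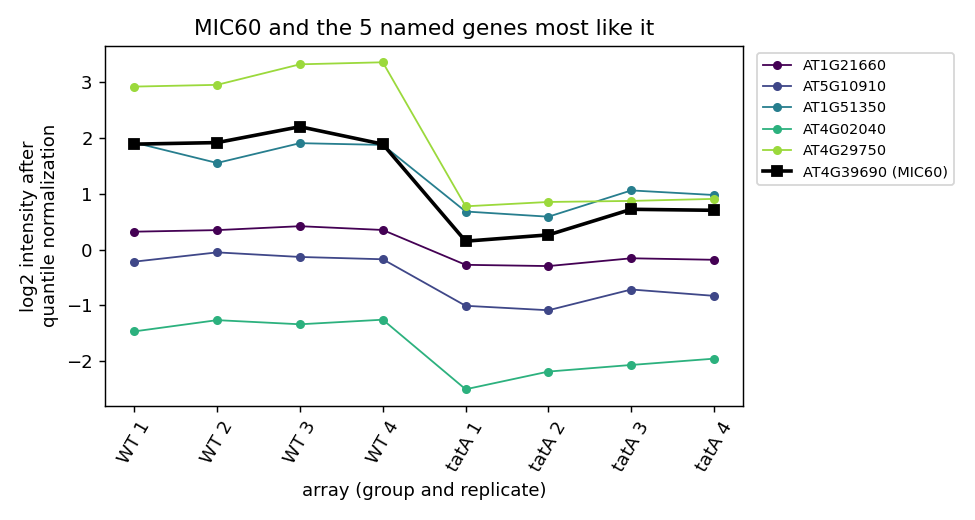
Log2 intensity after quantile normalization (y axis) of MIC60 (black squares) and the 5 loci with the highest Pearson correlation to it, on each of the 8 arrays (x axis). Every line steps down from the WT to the tatA arrays, with log2 differences of -0.59 for AT1G21660 and -2.29 for AT4G29750, and MIC60 is higher on tatA replicates 3 and 4 than on replicates 1 and 2.

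For AT4G31930, whose zeros were filled with the lowest positive intensity on the same array, the closest loci were AT3G56250 (Pearson r = 0.942), AT2G19280 (0.942), MAMI (0.933), AT1G73470 (0.928) and AT1G72020 (0.918), over 8 arrays. None of the 598 reached 0.95, and 11 were over 0.9. On the deposited scale AT2G19280 averaged 3.50 ± 0.233 in WT and 3.93 ± 0.301 in tatA, and MAMI, a membrane-associated protein named for its induction by mannitol, averaged 0.763 ± 0.0935 and 0.810 ± 0.0762 (SD, n = 4 arrays). AT1G72020 averaged 0.328 ± 0.109 and 0.590 ± 0.0331 (SD, n = 4 arrays). As deviations from the group means the 5 correlations were between 0.707 and 0.915. Of the 8 values of AT4G31930 behind them, 3 are filled in, not measured. In WT the deviations set replicate 1, the only measured value, against these 3. That contrast makes up most of their spread, so nothing is read from these correlations.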

How the data were processed

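The deposited table holds 1 value per spot and array, a linear spot intensity; per the file itself it is never negative and holds exact zeros. Image reading, background handling, scaling and filters are not given in the sources used here, and the number of arrays limits precision. Spots were assigned through the platform annotation (692 with 1 gene, 690 matched to a RefSeq locus of the TAIR10.1 assembly, used for names only). No build is named for the array, so no coordinates are given, and probe sequences were not used here.

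Rows at 0 on more than 4 of 8 arrays (177 spots) were left out, other zeros took the lowest positive intensity on the same array, log2 was taken, and arrays were quantile normalized. Spots of 1 gene were averaged, leaving 3261 rows. Groups were compared two-sided with limma 3.58.1 in R 4.3.3 (lmFit, eBayes with intensity trend), group as the only term, and Benjamini-Hochberg adjustment over all rows at 0.05. The script was tested on simulated data. Figures used matplotlib 3.10.9.

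Members and lists were chosen with earlier results of these data known. Named were both genes, the listed mitochondrial genes on the array, the 5 loci most like each gene, and the spots with the next numbers. A list by annotation text (75 loci naming mitochondria) had 0 on the array. The 9 added genes were chosen after the array's loci were seen; AT5G47890, AT5G67490 and AT4G32060 among them have no name in the annotation and were placed from general knowledge. Replicate numbers were checked for pairing: with group means removed, arrays of equal number in WT and tatA correlated at 0.284, 0.311, 0.266 and 0.337, all over 0.1 and above every unlike-numbered combination (-0.241 to 0.131), so the number was used as a block in an alternative fit. Other alternatives were the scaling, the treatment of zeros, the filters, the pairs as a block or averaged, no trend, and leaving out each array.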

Additional observations from a re-analysis of the deposited data

Results flagged for a closer look

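In 28 groups of 4 arrays (the 2 genes and the 12 other mitochondrial genes), CKS had 1 value that stood apart from the rest of its group by Dixon's test, at 0.0224 on tatA replicate 1 and between 0.148 and 0.169 on the other tatA arrays. Chance flags about 1 in 20 groups, so a flag among 28 groups is not unusual, and its cause was not tested. AT4G31930 met the same limit in WT, with 0.0564 on replicate 1, but the other WT values are all 0, so that any positive value there would have met it.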

How the results depend on the processing

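The log2 difference of MIC60 was -1.52, between -1.59 and -1.41 with 1 array left out, and -1.82 on the deposited scale, where the median of all rows is -0.47. That of AT4G31930 has no fixed size: it was 7.47 with zeros at the array minimum, 1.20 with an offset of 0.118 before log2, and between 6.77 and 9.29 with 1 array left out. AT4G31930 had no value where spots with a 0 or the dimmest 25% were left out. Neither gene changed direction in any alternative that gave a value. Both were chosen by that direction and their groups did not overlap, so nothing is read from this.

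In all, 1046 rows passed, 537 when replicate pairs formed a random block (correlation 0.546), 57 when averaged by pair, and 780 to 952 with 1 array left out; averaging leaves 2 values per group. Of the 3 listed mitochondrial genes, 0 passed, and 1 (AT5G47030) did on the deposited scale, with the offset, and without spots holding a 0; the count was 0 to 1 with 1 array left out, being 1 only without tatA replicate 3. Of the 12 genes, 1 passed, 3 on the deposited scale, 2 with the offset, 2 without spots holding a 0, and 0 when pairs formed a random block or were averaged; it was 1 to 2 with 1 array left out. ETFQO turned from -0.04 to 0.000579 without tatA replicate 1 and to 0.0135 without tatA replicate 3, the highest value with 1 array left out, the lowest being -0.127. With the replicate number as a block, 1027 rows passed, and no call among the 12 genes changed. The cause of these shifts was not tested. The treatment of zeros moved AT4G31930 far more than other scalings did (6.67 to 7.07).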
